A study of Mus musculus with 4 samples.

Results

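The genes described here are 10 that encode cytokines of the thymic stroma or a receptor for such signals, namely Il7, Kitl, Flt3l, Il15, Tslp, Csf1, Il34, Tnfsf13b, Il33 and Lifr. They were taken by their symbols from the 32285 features of every count matrix, and all 10 were present in all 4 libraries. The libraries held CD45- cells of the thymus of untreated C57BL/6 mice aged 6 months, profiled by droplet-based single-cell RNA sequencing of transcript 3′ ends. WT 1 and WT 2 came from the group labelled mock, with a wild-type genotype. Z/Z 1 and Z/Z 2 came from the Foxn1LacZ mutant group, homozygous for a LacZ allele of Foxn1 that lowers the activity of the gene in thymic epithelial cells (TECs). The contrast of Z/Z with WT asked how a reduced Foxn1 dose alters the stroma, and here it was read for the supply of these factors by TECs, fibroblasts (FBs), endothelial cells (ECs) and mural cells. Thymi of several mice were pooled before cell sorting, so a library is not 1 animal, and nothing says whether the 2 libraries of a genotype came from separate pools. The p-values therefore measure only the spread between these libraries, which may be technical. The sex of the mice is given as female in one label and as male in another.

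T cell progenitors do not renew themselves in the thymus for long and depend on signals from stromal cells at each step. IL-7, stem cell factor (encoded by Kitl) and FLT3 ligand act on the earliest progenitors, IL-15 and TSLP act on selected lymphoid subsets, and CSF1 and IL-34 share a receptor on macrophages. Foxn1 encodes the transcription factor that directs the epithelial programme of the thymus and is expressed in TECs.

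The kept cells numbered 9847 of 13981 called barcodes, and each library held 8468086 to 50705511 UMIs (unique molecular identifiers, each standing for 1 captured transcript) in its called barcodes. Series of 4 values below list the WT libraries 1 and 2 and then the Z/Z libraries 1 and 2. TECs numbered 560, 105, 1959 and 1543. FBs numbered 599, 191, 1210 and 738, and ECs 109, 25, 695 and 671. WT 2 held 11 mural cells, under the 20 cells required for the level of a lineage, so mural levels rest on 3 libraries, although the mural test kept WT 2. For the level of a subcluster 5 cells in a library were enough, and WT 2 values there often rest on few cells. The median depth of a TEC was 15525 and 16965 UMIs in WT but 6058 and 6269 UMIs in Z/Z, and for this reason results were repeated on cells thinned to 2000 UMIs each. The libraries of a genotype shared called barcodes, 202 between WT 1 and WT 2 and 249 between Z/Z 1 and Z/Z 2, against at most 6 between genotypes. Of the kept cells 18 and 32 were shared in this way, and counting each of these barcodes once changed no call for the 10 genes in the lineage tests. If the libraries of a genotype were handled together and apart from the other genotype, batch and genotype cannot be told apart. The makeup of each lineage differed with genotype. An unnamed TEC subcluster led by S100a8 and Csn2 (TEC 3) held 46.1% and 43.8% of WT TECs but 1.99% and 4.02% of Z/Z TECs. TEC 3 scored best, at 0.875, for mTEC2, a medullary class with the fixed markers Aire, Fezf2, Cd80 and Cd40, and 4 were detected. It was left unnamed because its top genes held Ccl20, a marker of another class (M cells), and none of the mTEC2 markers. By contrast aaTEC2-like cells held 2.32% and 0% of WT against 28.3% and 24.7% of Z/Z TECs. They are an age-associated epithelial state named from fixed markers, with little Epcam. The count of 0 of 105 cells in WT 2 allows a share of up to 2.86%. Among FBs an unnamed subcluster led by Cpne4 and Csf2rb (FB 3) held 47.6% and 59.2% of WT and 1.98% and 2.71% of Z/Z cells. Another, led by Kcnj8 (FB 0), held 2.50% and 6.81% of WT against 53.3% and 26.6% of Z/Z cells. FB 0 scored best, at 0.512, for the medullary fibroblast class and was left unnamed because its top genes held more markers of another class. Its top genes included heat-shock genes, and also Kcnj8 and Rgs16, which were top genes of a mural cluster too. The part of mural-like cells in the FB values was not tested. Foxn1 itself stood at 90.6 and 125 CPM (the UMIs of a gene scaled to the total UMIs of the lineage in that library) in WT TECs and at 50.9 and 68.5 CPM in Z/Z TECs (log2 change -0.70 ± 0.23 SE, edgeR adjusted p = 0.0835). The sources used here do not say whether its counted 3′ end lies outside the altered region, so this value does not check the labels.

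As the contrast concerns a transcription factor, the 250 bases upstream of the annotated RefSeq start are shown for Csf1, Flt3l and Il33, whose levels differed between the genotypes in TECs and for which the promoter table had an entry. Coordinates are on GRCm38.p6, each sequence reads 5′ to 3′ on the strand of its gene, and Il33 is shown at the more upstream of its starts. Both strands were searched for GACGC, the core of the FOXN1 motif, and for TTCNNNGAA, the STAT motif; capitals would mark a match.
Csf1, minus strand, chr3:107760470-107760719: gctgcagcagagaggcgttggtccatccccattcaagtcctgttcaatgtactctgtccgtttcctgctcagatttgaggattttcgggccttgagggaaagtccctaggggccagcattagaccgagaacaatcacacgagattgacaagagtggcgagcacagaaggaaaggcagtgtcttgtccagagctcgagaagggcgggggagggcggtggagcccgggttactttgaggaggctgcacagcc
Flt3l, minus strand, chr7:45136433-45136682: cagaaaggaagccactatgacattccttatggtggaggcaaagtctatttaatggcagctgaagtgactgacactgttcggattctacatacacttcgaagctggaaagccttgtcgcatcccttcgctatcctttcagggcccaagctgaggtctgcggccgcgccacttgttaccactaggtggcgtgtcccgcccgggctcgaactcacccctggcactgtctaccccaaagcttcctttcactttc
Il33, plus strand, chr19:29924863-29925112: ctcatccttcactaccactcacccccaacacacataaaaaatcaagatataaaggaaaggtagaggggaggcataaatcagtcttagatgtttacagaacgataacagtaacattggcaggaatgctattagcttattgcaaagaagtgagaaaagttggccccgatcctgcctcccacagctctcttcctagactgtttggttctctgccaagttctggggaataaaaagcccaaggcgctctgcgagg
None of these 3 windows held either motif, while GACGC occurred once in a window of Kitl and once in a window of Lifr, and 22.6% of all 32851 promoter windows of this length held GACGC and 7.02% held TTCNNNGAA. The absence of a match says only that these letters are not in these windows.

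The 10 genes fell into 4 sets by the lineage with the highest level. Il7, Il15 and Lifr were highest in TECs, Kitl in ECs, Il34 in mural cells, and Flt3l, Tslp, Csf1, Tnfsf13b and Il33 in FBs. In 6 genes (Il7, Kitl, Tslp, Csf1, Tnfsf13b and Il33) the libraries of the leading lineage did not overlap those of the next. For Flt3l, Il15, Il34 and Lifr they overlapped over all libraries. Within libraries, Flt3l was higher in FBs than in TECs in 4 of 4 (log2 difference 1.04 to 2.04) and Il34 was higher in mural cells than in FBs in 3 of 3 (0.44 to 0.96), whereas Il15 was higher in TECs than in ECs in 2 of 4 and Lifr in 3 of 4. The leading lineage was the same for all 10 genes in each of 6 alternative treatments of the cells.

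**Figure D1:**
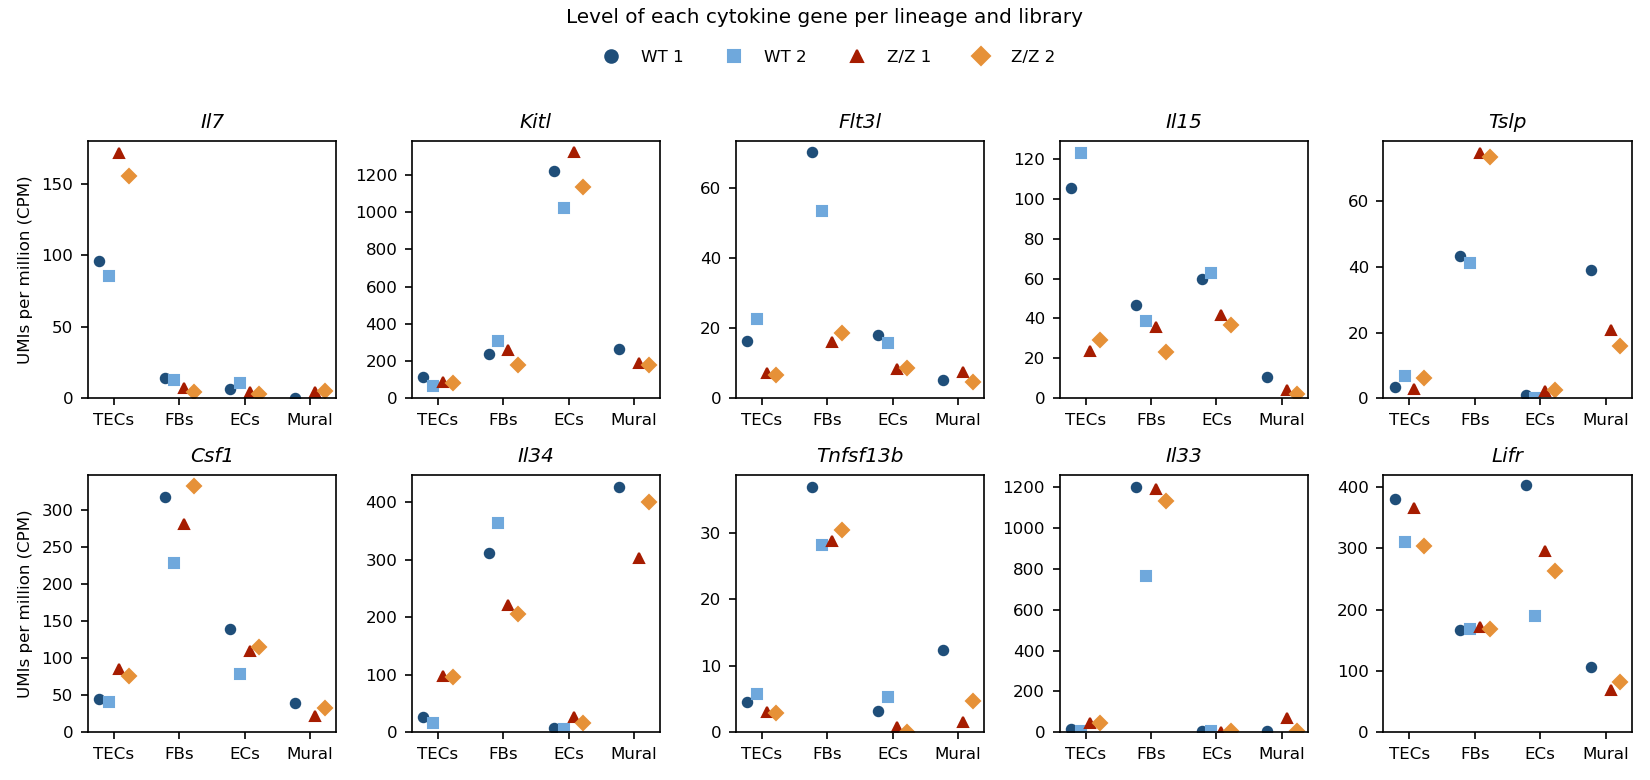
Level of each of the 10 genes in CPM by lineage, with WT and Z/Z marked apart. There is 1 point for each library with at least 20 cells of the lineage, so a WT library has no mural point. Kitl stood above 1000 CPM in all 4 EC libraries, Il33 was highest in FBs and Il7 in TECs.

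Il7, the survival and growth factor of immature thymocytes, was an epithelial transcript. WT 1 and WT 2 held 95.8 and 85.2 CPM in TECs, and Z/Z 1 and Z/Z 2 held 171 and 155 CPM. Both Z/Z libraries lay above both WT libraries, and the level was 2.00-fold higher (log2 change 0.997 ± 0.14 SE, n = 2 libraries each, edgeR adjusted p = 0.0124). In the same test 6 of the 10 genes were called in TECs (Il7, Csf1, Il34 and Il33 higher, Il15 and Flt3l lower), while 22.5% of all 18886 genes tested were called, 1965 higher and 2276 lower; with libraries scaled to total UMIs in place of TMM (edgeR's trimmed-mean scaling) the split was 1351 to 2660, the median gene moved to -0.15 on the log2 scale and the 6 calls stood. The call for Il7 was lost without Z/Z 1 (log2 change 0.94, adjusted p = 0.0629) and in cells thinned to equal depth (log2 change 0.66, adjusted p = 0.0654). The share of thinned TECs with an Il7 UMI was 16.2%, 20.4%, 28.2% and 27.2% in WT 1, WT 2, Z/Z 1 and Z/Z 2, beside 51.1%, 48.6%, 59.5% and 57.3% before thinning and at most 3.13% in thinned thymocytes of any library, cells that should lack the cytokine. In 2-sided exact permutation tests such a share could not reach a p below 0.333 with 2 libraries against 2.

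Within TECs the Il7 level was highest in an unnamed subcluster led by Kctd16 and Adamts19 (TEC 6), at 204, 479, 349 and 527 CPM in WT 1, WT 2, Z/Z 1 and Z/Z 2. Those WT values came from 12 and 7 cells. In TEC 3, the most populous WT subcluster, it stood at 55.6, 26.4, 77.3 and 78.3 CPM. With TEC subclusters weighted as in WT, over the 8 with at least 5 cells in every library, Il7 read 90.1, 77.3, 105 and 111 CPM. The log2 difference of the mean levels was 0.37, for which no test was made. The Z/Z libraries still lay above the WT libraries at these fixed shares, at a smaller distance. cTEC-like cells, the cortical epithelium that surrounds immature thymocytes, held 197, 114, 129 and 123 CPM, with WT and Z/Z overlapping. In FBs, Il7 stood at 14.5 and 12.7 CPM in WT and at 7.02 and 4.58 CPM in Z/Z (log2 change -1.15 ± 0.30 SE, edgeR adjusted p = 0.0760). The log2 change was -0.10 after thinning, and the call was gained with free RNA subtracted (-1.42, adjusted p = 0.0410) and with no filter on low counts (-1.11, adjusted p = 0.0133), while the weighted means were 13.5 CPM in both genotypes.

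Il15, which supports natural killer and other innate-like lymphocytes, ran the other way in TECs. Its level was 106 and 123 CPM for WT 1 and WT 2 but 23.9 and 29.2 CPM for Z/Z 1 and Z/Z 2. The genotypes did not overlap, and the level fell by 1.96 on the log2 scale (SE 0.18, edgeR adjusted p = 0.00754), a 3.88-fold difference. This call held with each library left out in turn, after thinning and under the other alternatives that had a test. Thinned to 2000 UMIs, 14.9% and 19.4% of WT TECs and 4.50% and 4.01% of Z/Z TECs held an Il15 UMI (42.5%, 50.5%, 14.7% and 16.1% before thinning), with 0% of thymocytes in any library (of 85, 34, 6 and 32 cells, which allows shares of up to 3.53%, 8.82%, 50% and 9.38%). A list of 5 myeloid markers, none at 0, moved with Il15 in these sums, at 292 and 681 CPM for WT against 60.0 and 99.0 CPM for Z/Z, and its part in the result was not tested.

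The subclusters of TECs differed in Il15. TEC 3, the WT-rich subcluster with S100a8 and Csn2, held 143 and 172 CPM in WT and 64.9 and 114 CPM in Z/Z (log2 change -0.73 ± 0.33 SE, edgeR adjusted p = 0.486). cTEC-like cells held 82.8 and 48.2 CPM in WT and 11.3 and 19.1 CPM in Z/Z. With subclusters weighted as in WT the libraries read 108, 128, 47.4 and 79.6 CPM, a log2 difference of -0.89. The genotypes remained apart at fixed subcluster shares, and the difference was under that of the sums. In ECs Il15 stood at 59.7 and 63.1 CPM in WT and 41.6 and 36.9 CPM in Z/Z (log2 change -0.63 ± 0.27 SE, adjusted p = 0.230). TECs exceeded ECs in both WT libraries, and ECs exceeded TECs in both Z/Z libraries. FBs held 46.9, 38.8, 35.7 and 23.3 CPM (log2 change -0.48 ± 0.23 SE, adjusted p = 0.306), above TECs in Z/Z 1 only.

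Tslp, an IL-7-related cytokine that acts on dendritic cells and lymphoid progenitors, was highest in FBs. Mural cells came next, at 39.1 CPM in WT 1 and 20.9 and 15.8 CPM in Z/Z 1 and Z/Z 2. FBs held 43.3, 41.2, 74.8 and 73.6 CPM in WT 1, WT 2, Z/Z 1 and Z/Z 2. Both Z/Z libraries were higher (log2 change 0.87 ± 0.16 SE, 1.83-fold, edgeR adjusted p = 0.0188). Flt3l and Tslp were the 2 of the 10 genes called in FBs, against 3.03% of 13877 genes tested. The Tslp call was lost with any single library left out (log2 change 0.86 to 0.91, adjusted p = 0.113 and 0.0896 for WT 1 and WT 2 left out, 0.161 and 0.193 for Z/Z 1 and Z/Z 2) and after thinning, where the log2 change was 0.88 (adjusted p = 0.0776). Of the FB subclusters, medullary-like cells had the highest mean, at 69.7, 83.6, 92.9 and 165 CPM, and FB 0 followed at 57.1, 45.5, 127 and 140 CPM. Tslp rose in capsular-like FBs, from 1.91 and 6.77 CPM to 13.6 and 17.4 CPM (log2 change 2.41 ± 0.57 SE, adjusted p = 0.0346), on 5, 4, 45 and 49 UMIs; in that test 2 of 9 genes were called, against 6.8% of 10832 genes tested. With subclusters weighted as in WT the FB libraries read 46.6, 39.1, 44.2 and 75.4 CPM and overlapped. In TECs Tslp read 3.50, 6.68, 2.70 and 6.15 CPM (log2 change 0.02 ± 0.58 SE, adjusted p = 0.987), and tuft-like TECs held 6.22, 8.54, 259 and 9.77 CPM, where the value of Z/Z 1 rests on 22 UMIs in 7 cells.

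Kitl, the ligand of the KIT receptor on early progenitors, was highest in ECs in every library, at 1223, 1025, 1322 and 1134 CPM. The genotypes overlapped (log2 change 0.12 ± 0.21 SE, edgeR adjusted p = 0.803). The share of thinned ECs with a Kitl UMI was 71.4%, 88%, 81.9% and 75.5%, with at most 6.25% of thymocytes. The EC subclusters 0 to 4 had mean levels between 922 and 1380 CPM, among them capillary-like, arterial-like and venous-like cells. FBs held 236, 309, 261 and 176 CPM and TECs 112, 64.7, 89.6 and 84.3 CPM, and neither lineage gave a call. In ECs 0 of the 8 genes tested were called by edgeR, with 3 at an unadjusted p under 0.05 and 0 by DESeq2, where 1.87% of 11359 genes tested were called.

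The TEC level of Kitl depended on subclusters. cTEC-like cells held 383, 163, 140 and 163 CPM, and aaTEC2-like cells 123 CPM in WT 1 and 177 and 150 CPM in the Z/Z libraries. TEC 3 held 50.1 and 24.9 CPM in WT and 2.76 and 14.4 CPM in Z/Z, on 2 and 22 UMIs for Z/Z (log2 change -1.93 ± 0.72 SE, adjusted p = 0.434). In TEC 3, 0 of 8 genes tested were called by edgeR, with 2 at an unadjusted p under 0.05, and 0.00854% of 11705 genes tested were called. With subclusters weighted as in WT, Kitl in TECs read 102, 58.3, 32.9 and 44.9 CPM, a log2 difference of -1.03 with no overlap and no test, whereas the sums gave 0.11 ± 0.26 SE. The TEC groups behind a weighted level, which leave out the aaTEC2-like cells for every gene, hold 87.0% and 89.2% of the TEC molecules of the WT libraries, against 64.0% and 71.2% for Z/Z. In mural cells Kitl stood at 267 CPM in WT 1 and at 192 and 177 CPM in the Z/Z libraries (log2 change -0.53 ± 0.27 SE, adjusted p = 0.602).

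Flt3l, the ligand of the FLT3 receptor on lymphoid and dendritic progenitors, was lower in Z/Z in both of its main lineages. FBs held 70.4, 53.6, 15.9 and 18.6 CPM in WT 1, WT 2, Z/Z 1 and Z/Z 2. The Z/Z libraries were lower without overlap, and the level fell by 1.80 on the log2 scale (SE 0.20, 3.48-fold, edgeR adjusted p = 0.00198). The call was lost without Z/Z 1 (log2 change -1.68, adjusted p = 0.0812) and without Z/Z 2 (log2 change -1.91, adjusted p = 0.0667). FB 3, which made up most WT FBs but few Z/Z FBs, had the highest mean level, at 115 and 67.4 CPM in WT and 18.9 and 88.6 CPM in Z/Z, the latter on 3 and 13 UMIs. With FB subclusters weighted as in WT the libraries read 75.2, 50.7, 16.2 and 53.0 CPM and overlapped. In the capsular-like, intermediate-like and medullary-like FBs summed together Flt3l fell by 1.16 on the log2 scale and still passed the test (adjusted p = 0.0131). That sum does not hold their shares fixed. Tested apart, Flt3l was not called in capsular-like FBs (log2 change -0.46 ± 0.38 SE, edgeR adjusted p = 0.53) or in intermediate-like FBs (-0.86 ± 0.34 SE, adjusted p = 0.334).

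In TECs Flt3l stood at 16.4, 22.6, 7.22 and 6.70 CPM. Both Z/Z libraries were lower (log2 change -1.31 ± 0.28 SE, 2.49-fold, edgeR adjusted p = 0.0294). The call was lost without WT 2 (log2 change -1.05, adjusted p = 0.0628), without Z/Z 1 (log2 change -1.36, adjusted p = 0.142) and without Z/Z 2 (log2 change -1.24, adjusted p = 0.141). TEC 3 had the highest TEC mean, at 22.5, 34.6, 30.4 and 17.0 CPM, with the genotypes overlapping there (adjusted p = 0.876). Weighted as in WT the TEC libraries overlapped too, at 17.7, 25.7, 22.1 and 12.2 CPM. In ECs the values were 18.1, 15.8, 8.31 and 8.55 CPM (log2 change -1.07 ± 0.44 SE, adjusted p = 0.223). The annotated Flt3l locus overlaps Gm45713 on the same strand over 6444 bases. Gm45713 is not among the features counted, so its reads cannot be told apart from those of Flt3l.

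Csf1 and Il34, the ligands of the macrophage receptor CSF1R, both rose in TECs. Csf1 stood there at 44.8, 41.3, 86.1 and 76.4 CPM in WT 1, WT 2, Z/Z 1 and Z/Z 2, with no overlap (log2 change 1.06 ± 0.16 SE, 2.08-fold, edgeR adjusted p = 0.0130). Its call was lost only without Z/Z 1 among the libraries left out in turn (log2 change 0.99, adjusted p = 0.0696). aaTEC2-like cells had the highest mean Csf1 of the TEC subclusters, at 221 CPM in WT 1 and at 177 and 157 CPM in the Z/Z libraries, with none of these cells in WT 2. Without them the log2 change was 0.80 (adjusted p = 0.0255), and with subclusters weighted as in WT the libraries read 42.2, 41.9, 82.8 and 63.3 CPM, a log2 difference of 0.79. The genotypes stayed apart under both. The FB level was higher, at 318, 229, 281 and 332 CPM, and overlapped between genotypes (log2 change 0.22 ± 0.19 SE, adjusted p = 0.589). Intermediate-like FBs held the highest mean Csf1, 473 CPM, and capsular-like FBs 356 CPM.

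Il34 in TECs stood at 26.0, 16.3, 97.2 and 96.1 CPM. The Z/Z libraries were 4.90-fold higher (log2 change 2.29 ± 0.24 SE, edgeR adjusted p = 0.00782), and the call held in every alternative tested. In thymocytes, which should lack the transcript, Il34 read 23.6 and 13.5 CPM in the WT libraries and 41.4 CPM in Z/Z 2, so the WT TEC levels were near this background and the Z/Z levels above it. With the estimated free RNA subtracted the log2 change was 2.50. The share of thinned TECs with an Il34 UMI was 4.24%, 0.971%, 17.4% and 16.5% (16.4%, 16.2%, 37.8% and 39.5% before thinning), beside 3.53%, 2.94%, 0% and 6.25% of thymocytes, where Z/Z 1 had 6 thymocytes and a count of 0 allows a share of up to 50%.

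By TEC subcluster, Il34 was high in an unnamed group led by Gm20713 and Gpc5 (TEC 7), at 84.3 CPM in WT 1 and at 219 and 238 CPM in the Z/Z libraries. Cells of TEC 1, an unnamed group led by Gm26802 and Pde4c, held 49.3, 15.1, 150 and 147 CPM, and cTEC-like cells held 69.5, 30.1, 138 and 175 CPM. In each of these groups both Z/Z libraries were above the WT libraries measured, but the WT 2 values rest on 2 UMIs in 5 cells of TEC 1 and on 5 UMIs in 9 cTEC-like cells. TEC 3 held 14.6, 7.53, 9.66 and 9.13 CPM, with overlap. The genotypes also overlapped in TEC 8, an unnamed group led by Gm26917 and Zfp791, at 20.4, 396.5, 76.9 and 60.8 CPM. So did mTEC1-like cells, at 7.38, 55.9, 17.3 and 22.0 CPM. The WT 2 values of these last groups rest on 15 and 4 UMIs. With subclusters weighted as in WT the TEC libraries read 23.2, 19.5, 42.9 and 45.7 CPM, a log2 difference of 1.04 against 2.29 in the sums. These weighted levels leave out TEC 7, which held 4 cells in WT 2.

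Outside TECs, Il34 was highest in mural cells, at 426 CPM in WT 1 and at 302 and 400.2 CPM in the Z/Z libraries, and FBs held 311, 364, 222 and 205 CPM. The FB libraries did not overlap between genotypes, and the change did not pass the test (log2 change -0.60 ± 0.17 SE, edgeR adjusted p = 0.0907), although DESeq2 gave an adjusted p of 0.0351. Capsular-like FBs held 67.2, 40.6, 8.75 and 20.2 CPM, and there Il34 fell by 1.94 on the log2 scale (SE 0.37, adjusted p = 0.0154). In FB 3 it stood at 495, 478, 700 and 880 CPM (log2 change 0.71 ± 0.26 SE, adjusted p = 0.573), and with all FB subclusters weighted as in WT the sign turned, at 334, 343, 423 and 546 CPM (log2 difference 0.52). In ECs Il34 read 7.46, 5.26, 26.7 and 16.9 CPM (log2 change 1.62 ± 0.54 SE, adjusted p = 0.138), under the thymocyte level in each of the 3 libraries that had one. An EC subcluster of 45 cells with Ccl11, Rgs4 and Rgs5 among its top genes held 259 CPM in Z/Z 1 and 168 in Z/Z 2 and too few WT cells for a level. Mural markers summed to 140, 363, 325 and 279 CPM in the EC sums, and their part in the result was not tested. In mural cells the log2 change was -0.42 ± 0.27 SE for Il34 (adjusted p = 0.692), -0.86 ± 0.47 SE for Tslp (0.637) and -0.39 ± 0.42 SE for Csf1 (0.846). Antisense genes overlap Il34, Il7, Tnfsf13b and Tslp. In mural cells 0 of 5 genes tested were called by edgeR, with 0 at an unadjusted p under 0.05 and 0 by DESeq2, against 0.0806% of 8687 genes.

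**Figure D2:**
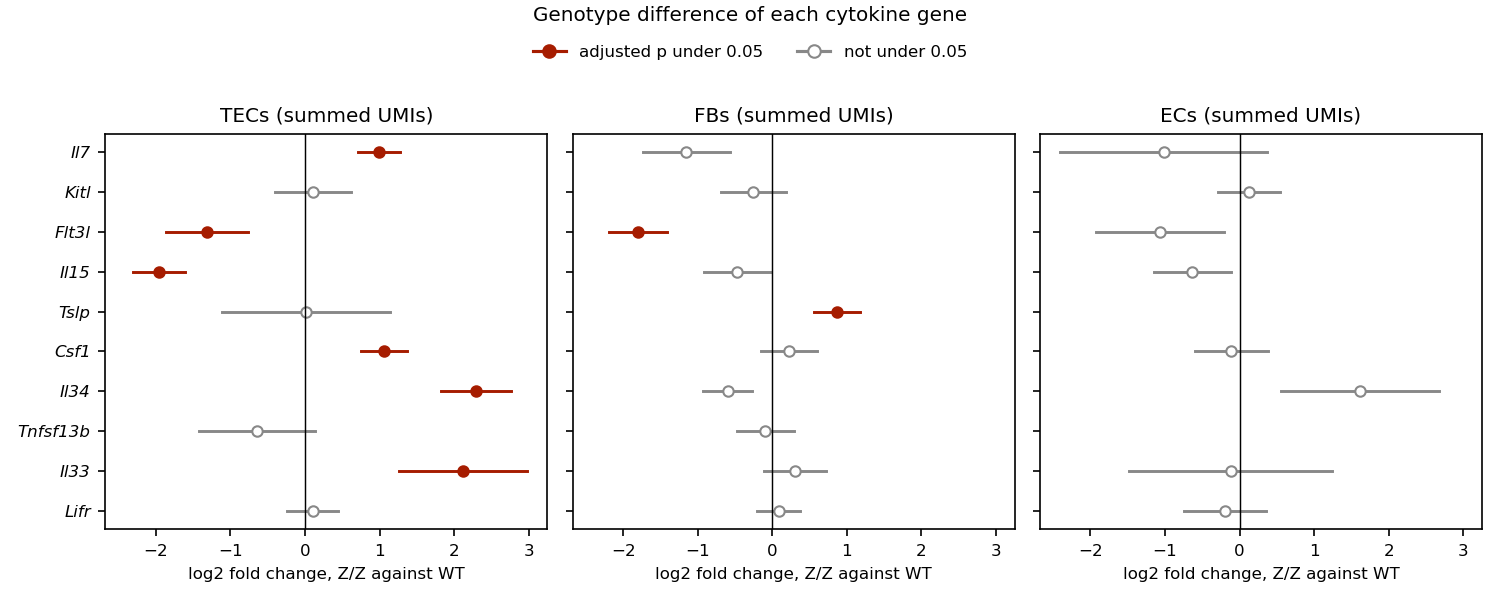
Log2 change of each gene in Z/Z against WT in the UMI sums of TECs, FBs and ECs, with filled points for an edgeR adjusted p under 0.05. Bars show a 95% interval from the SE and a normal quantile, which is narrower than the edgeR test implies. The 6 filled points of TECs run from -1.96 for Il15 to 2.29 for Il34, and FBs have filled points for Flt3l (-1.80) and Tslp (0.87).

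Tnfsf13b, which encodes the B cell survival factor BAFF, was highest in FBs, at 36.9, 28.2, 28.8 and 30.5 CPM. The genotypes overlapped (log2 change -0.09 ± 0.19 SE, edgeR adjusted p = 0.848). FB 0 had the highest mean level, 35.3 CPM, and the 5 FB subclusters lay between 23.6 and 35.3 CPM. In TECs it read 4.56, 5.85, 2.996 and 2.88 CPM (log2 change -0.65 ± 0.40 SE, adjusted p = 0.283). It did not pass the filter on low counts in ECs or mural cells.

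Il33, a nuclear cytokine released by damaged stromal cells, was highest in FBs, at 1199, 763, 1188 and 1132 CPM. The genotypes overlapped there (log2 change 0.31 ± 0.21 SE, edgeR adjusted p = 0.498). Medullary-like FBs held 2184, 1537, 3161 and 2918 CPM, the highest level of any subcluster, with both Z/Z libraries above both WT libraries. Intermediate-like FBs held 491, 295, 703 and 972 CPM (log2 change 1.14 ± 0.25 SE, adjusted p = 0.0877), and in that test 0 of 9 genes were called by edgeR, with 2 at an unadjusted p under 0.05 and 0.813% of 10081 genes called. In FB 3, 0 of 10 genes were called, with 2 at an unadjusted p under 0.05, where 0% of 8490 genes were called and 664 had an unadjusted p under 0.05.

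In TECs Il33 stood at 15.3, 5.01, 43.6 and 44.3 CPM. Both Z/Z libraries were higher (log2 change 2.13 ± 0.44 SE, 4.36-fold, edgeR adjusted p = 0.0265). The call was lost without Z/Z 1 (log2 change 2.18, adjusted p = 0.107), without Z/Z 2 (log2 change 2.17, adjusted p = 0.0922) and without the aaTEC2-like cells (log2 change 1.35, adjusted p = 0.127), in which Il33 read 24.6 CPM in WT 1 and 99.1 and 229 CPM in the Z/Z libraries. Without WT 2, whose value rests on 12 UMIs, the log2 change was 1.71 and the call held (adjusted p = 0.00824), and without WT 1 it was 3.26. Fibroblast markers summed over a list of 6, none at 0, to 135 and 110 CPM in WT TECs and 262 and 289 CPM in Z/Z TECs, beside 13290 to 17470 CPM in FBs. Their part in the Il33 and Il34 results was not tested. With the estimated free RNA subtracted the log2 change of Il33 was 2.99 (edgeR adjusted p = 0.0407). Il33 stood at 196, 107, 242 and 147 CPM in the barcodes with at most 50 UMIs that gave this estimate. The subtraction took a larger part of the low WT counts than of the Z/Z counts, and little of the 12 UMIs of WT 2 was left. The larger change therefore does not show a stronger difference. With TEC subclusters weighted as in WT the libraries read 13.3, 5.83, 27.8 and 22.4 CPM, a log2 difference of 1.34.

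Lifr encodes the receptor chain for leukaemia inhibitory factor (LIF), a cytokine linked to thymic involution. TECs held 381, 310, 365 and 304 CPM and ECs 403, 189, 296 and 262 CPM. The genotypes overlapped in both lineages (log2 change 0.10 ± 0.18 SE in TECs, edgeR adjusted p = 0.705, and -0.19 ± 0.28 SE in ECs, adjusted p = 0.759). FBs held 167, 168, 172 and 168 CPM (log2 change 0.08 ± 0.15 SE, adjusted p = 0.821), and mural cells 107 CPM in WT 1 and 69.8 and 81.3 CPM in the Z/Z libraries (log2 change -0.38 ± 0.30 SE, adjusted p = 0.759). TEC 6, the subcluster with the highest Il7, also had the highest Lifr, at 2952, 3539, 1078 and 1175 CPM (12 and 7 WT cells), and TEC 3 held 14.8, 3.01, 38.6 and 18.3 CPM. Both Z/Z libraries were thus below both WT libraries in TEC 6 and above them in TEC 3. The WT 2 value of TEC 3 rests on 4 UMIs, and the change there did not pass the test (log2 change 1.56 ± 0.76 SE, edgeR adjusted p = 0.502). TEC 6 had too few cells for a test. With subclusters weighted as in WT, Lifr in TECs read 372, 264, 178 and 150 CPM, a log2 difference of -0.95 with no overlap and no test. The share of thinned TECs with a Lifr UMI was 24.4%, 28.2%, 47.4% and 41.7% (44.6%, 48.6%, 76.4% and 71.0% before thinning), an order that the CPM values do not follow, beside 4.71%, 2.94%, 16.7% and 9.38% of thymocytes.

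**Figure D3:**
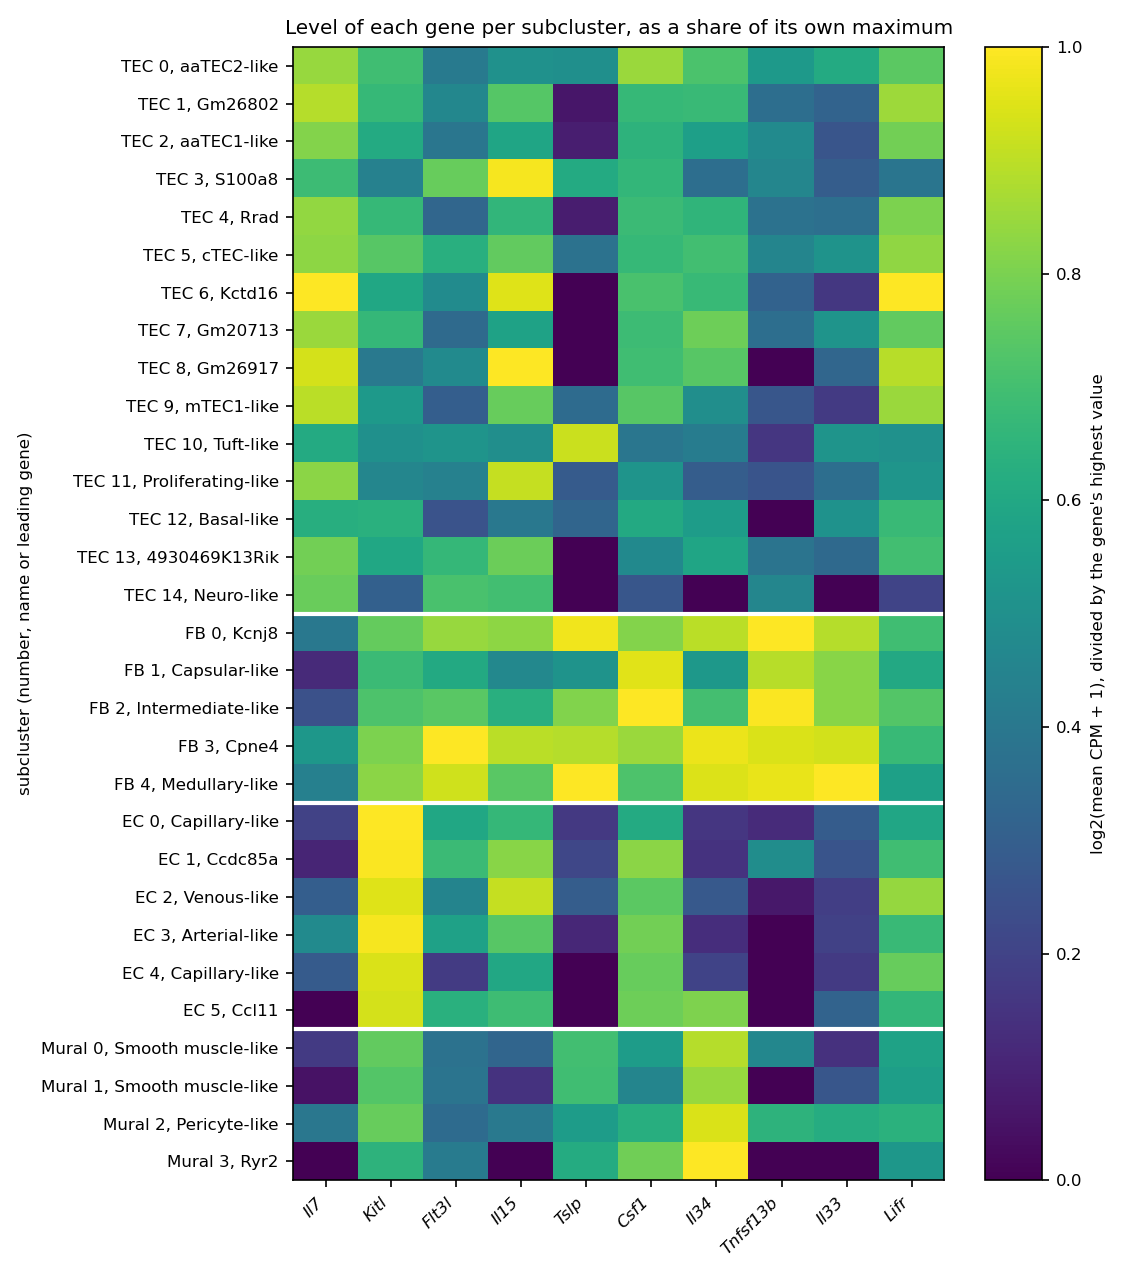
Mean level of each gene, as log2(CPM + 1) divided by the highest value of that gene (colour scale from 0 to 1), in each subcluster (rows, grouped by lineage). Lifr and Il7 were highest in TEC 6 (2186 and 390 CPM), Il33 in medullary-like FBs (2450 CPM) and Kitl across the EC subclusters.

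Whether the effect of genotype differed between TECs, FBs and ECs was tested by an interaction term. It passed for Il7 (edgeR adjusted p = 0.000306), Il15 (0.00281), Il34 (7.29e-05) and Il33 (0.0013), 4 of the 10 genes, against 13.8% of 17659 genes tested. The change of Il7 in FBs was 2.12 log2 units below that in TECs, that of Il34 was 2.82 units below and that of Il33 was 1.86 units below, whereas that of Il15 was 1.50 units above. Each library served all 3 lineages, so these lineage values are not independent. The interaction for Il15 was lost without Z/Z 1 (adjusted p = 0.0916), that for Il7 was lost in thinned cells (0.141), and Csf1, at 0.0518, passed with no filter (0.00292), in thinned cells (0.0482) and without WT 2 (0.0188). Kitl passed without WT 1 (0.0323).

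The lineages also differed in how much of the stroma they made up. Among stromal cells ECs made up 8.16% and 7.53% for WT against 16.2% and 20.4% for Z/Z, figures that digestion and sorting can set. Of all stromal Kitl UMIs, ECs held 24.8% and 15.5% in the WT libraries but 55.5% and 63.1% in the Z/Z libraries. FBs held 42.3%, 69.7%, 25.7% and 15.2% of them. The lineage with the most Kitl UMIs was thus FBs in both WT libraries and ECs in both Z/Z libraries, while the EC level in CPM overlapped.

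TECs held 90.3%, 84.3%, 96.7% and 98.0% of Il7 UMIs. Their share of Il34 UMIs was 10.1%, 3.44%, 35.5% and 43.1%, and their share of Csf1 UMIs 16.5%, 12.9%, 30.1% and 30.4%. For Il15 the TEC share was 74.2%, 70.7%, 42.6% and 59.8%, and the EC share was 3.20%, 2.88%, 18.8% and 20.1%. The FB share of Flt3l UMIs was 72.6%, 72.7%, 47.9% and 44.2%. In each of these shares the genotypes did not overlap. Of all stromal UMIs, FBs held 37.56%, 51.23%, 30.07% and 22.93% and ECs 4.25%, 3.44%, 12.85% and 14.82%, also without overlap. TECs held 55.65%, 43.25%, 50.58% and 55.82% of them, with overlap. All 50 exact permutation tests, for 10 genes in 5 lineages with mesothelial cells as the fifth, gave p of 0.333 or more (2-sided, smallest adjusted p = 0.505), and 0.333 is the smallest that 2 libraries against 2 allow. The widest exact (Clopper-Pearson) 95% binomial interval of a share ran from 74.4% to 90.2%, for Tnfsf13b in FBs of WT 2, and such intervals cover counting error only.

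**Figure D4:**
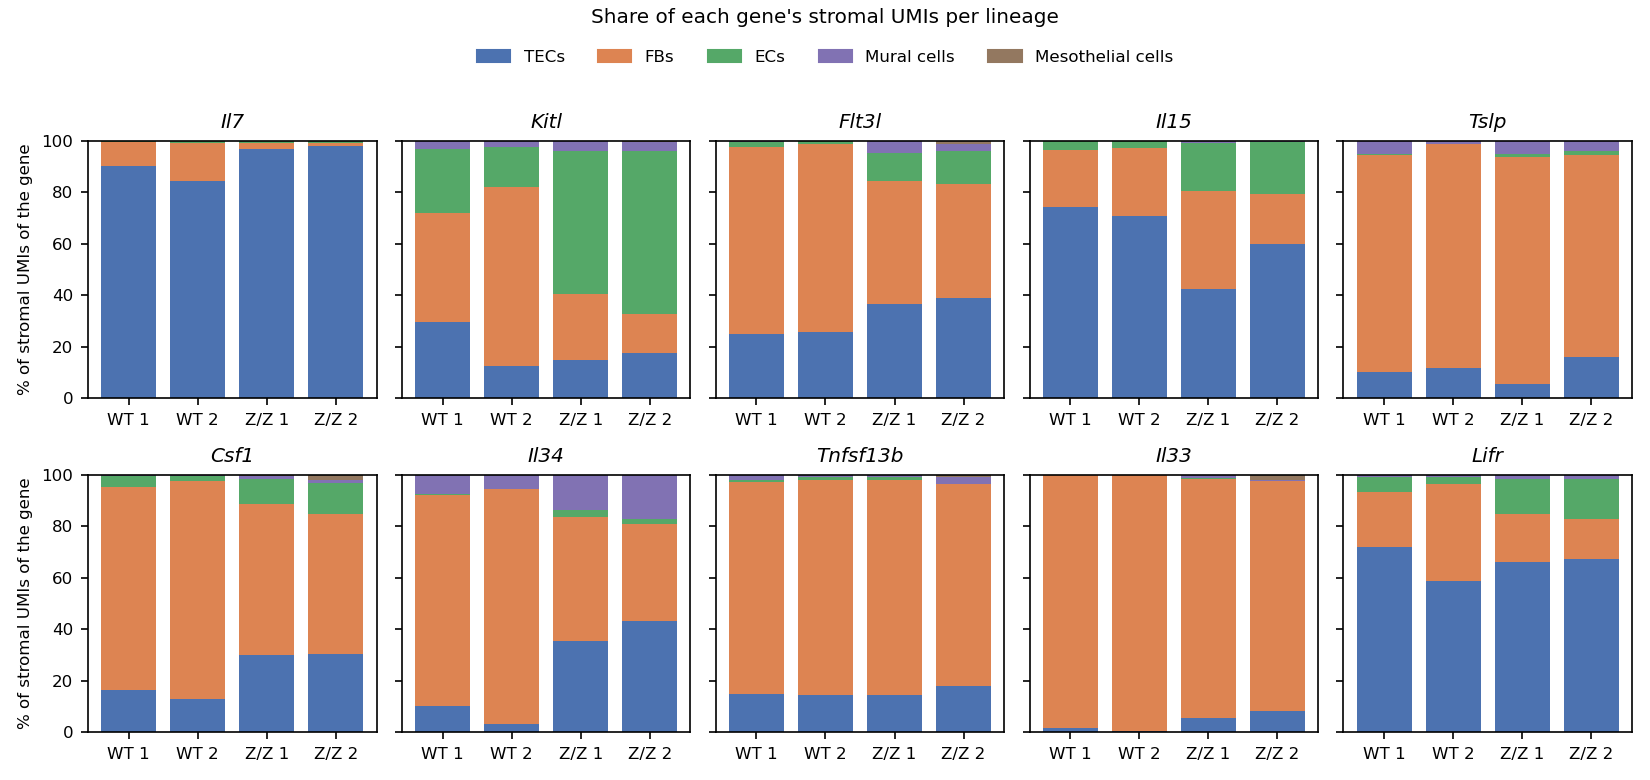
Percent of all stromal UMIs of each gene found in each lineage, for WT 1, WT 2, Z/Z 1 and Z/Z 2. The EC share of Kitl was 15.5% to 24.8% in WT and 55.5% to 63.1% in Z/Z, and the TEC share of Il34 was 3.44% to 10.1% in WT and 35.5% to 43.1% in Z/Z.

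Per cell, a median of 5 of the 9 ligands had a UMI in WT FBs and a median of 3 in Z/Z FBs, at median depths of 12999 and 13606 UMIs for WT against 9509.5 and 9463.5 UMIs for Z/Z. In TECs the median was 2 in each library. These counts were not thinned.

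The receptors of the ligands, a list of 14 genes, were read for the cells that could receive them. In TEC sums all 14 were tested, 0 were higher in Z/Z and 5 were lower by edgeR, where 22.5% of all TEC genes were called, 1965 higher and 2276 lower: Tnfrsf17 (log2 change -3.21), Kit (-1.49), Il2rb (-3.57), Il2rg (-2.29) and Il1rl1 (-2.57). The median of the list was -1.66, and that of all genes was 0.00. These include lymphoid receptor chains, and the summed myeloid and B cell markers moved with them. The 5 myeloid markers summed to 292 and 681 CPM in WT TECs and 60.0 and 99.0 CPM in Z/Z TECs. Sums of 4 B cell markers were 19.3 and 25.5 CPM in WT against 4.32 and 7.81 CPM in Z/Z. For 7 thymocyte markers the sums overlapped, at 91.0 and 52.2 CPM in WT and 21.1 and 69.5 CPM in Z/Z. None of these markers was at 0. Their part in the receptor values was not tested. In FBs 0 of 6 receptors tested were called by edgeR (1 at an unadjusted p under 0.05, 0 by DESeq2), in ECs 0 of 5 (1 and 0) and in mural cells 0 of 2 (1 and 0).

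The LIF receptor group was the name given to a list of 10 ligands and receptor chains, not all of which act with Lifr. In TECs 8 were tested, 3 rose and 1 fell, where 22.5% of all genes were called. Il6st, the shared signal chain, stood at 95.4 and 117 CPM in WT and 398 and 330 CPM in Z/Z (log2 change 1.93 ± 0.19 SE, edgeR adjusted p = 0.00782). Osmr, the oncostatin M receptor chain, stood at 235, 159, 520 and 503 CPM (log2 change 1.52 ± 0.21 SE, adjusted p = 0.0116). Ctf1 rose by 0.87 on the log2 scale and Lif fell by 1.29. The list median was 0.67, against 0.00 for all genes. In FBs 2 of 7 rose, Il6 by 1.83 and Cntfr by 0.96 (list median 0.93, all genes 0.00, with 3.03% of genes called). By edgeR 0 of 4 were called in ECs (1 at an unadjusted p under 0.05, 0 by DESeq2) and 0 of 4 in mural cells (0 and 0).

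JAK-STAT genes carry the signals of some of these cytokines into the cell. All 12 of the list were tested in TECs and 4 were called, 2 higher and 2 lower, where 22.5% of all genes were called. Socs3, a feedback inhibitor, stood at 159, 130, 815 and 513 CPM (log2 change 2.35 ± 0.27 SE, edgeR adjusted p = 0.00860). Stat3 rose by 0.69, whereas Stat5a fell by 1.09 and Socs1 fell by 1.13 on the log2 scale. The list median was 0.27. In FBs 1 of 12, Jak2, was lower (-0.68, list median 0.10, with 3.03% of genes called), and by edgeR 0 of 12 were called in ECs (1 at an unadjusted p under 0.05, 0 by DESeq2) and 0 of 10 in mural cells (0 and 0).

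The last list held 14 other niche ligands, among them Notch ligands and chemokines. In TECs 3 rose (Bmp4 by 2.11, Wnt4 by 1.06 and Ccl21a by 0.78 on the log2 scale) and 2 fell (Hgf log2 change -1.32, Igf1 -1.15), with a list median of 0.34, where 22.5% of all genes were called. In FBs, of 13 tested, Ccl21a (2.52) and Igf1 (0.76) rose and the Notch ligands Dll1 (-1.34) and Jag1 (-0.87) fell, with a list median of -0.02, where 3.03% of genes were called. Igf1 thus changed in opposite directions in TECs and FBs. In ECs, of 13 tested, Tgfb1 rose (1.24) and Tgfb2 fell (-1.37), where 1.87% of genes were called, and in mural cells 0 of 7 were called by edgeR (2 at an unadjusted p under 0.05, 0 by DESeq2). Ccl21a shares sequence with near-identical copies, so its counts are uncertain. Its level in FBs was low, at 5.06, 1.06, 12.3 and 28.2 CPM, against 609, 582, 786 and 1056 CPM in TECs. The part of free RNA in the FB values was not tested.

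For 9 of the genes, Tslp not among them, the transcripts most like each were sought by Pearson correlation of log2(CPM + 1) over 29 subclusters, among 12195 genes. Il7 was most like Isl1 (r = 0.927), Kitl most like Ets1 (0.903), Il34 most like Gucy1a2 (0.908) and Il33 most like Abca8a (0.92). Il15 paired with Slc22a15 (0.841), Tnfsf13b with Dcn (0.886) and Lifr with Zfp608 (0.845). The lowest of the best values were those of Csf1 with Wnk1 (0.78) and Flt3l with Apbb1ip (0.728). Subclusters share libraries and depth, so these values describe likeness of pattern and carry no p.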

How the data were processed

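Cells of the 4 libraries were sequenced after depletion and sorting of CD45- cells. The authors mapped reads with Cell Ranger (version 7.01 in the submitters' processing notes) to mm10. The counts deposited are UMIs of each gene in each barcode without normalization, given for called cells and for all barcodes seen. The labels name the v2 kit and another part of the methods a v3 chip. No column was left unmatched.

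From these counts, 100 ribosomal protein and haemoglobin features were left out. Cells with more than 1000 genes and under 20% mitochondrial UMIs were kept. The automatic Scrublet threshold (scanpy 1.11.5) had not worked, so the 3.9% of cells with the highest scores were removed in each library. Clusters (3500 variable genes, 35 principal components for all cells, 45 for TECs and fewer for the other lineages, 20 neighbours, Leiden) were built with 185 genes held out, the 10 genes and all markers among them. A cluster was named from markers when at least 3 were detected. The score limits of 0.2 for lineages and 0.6 for subclusters were set after seeing the data. A subcluster was left unnamed where its top genes held more markers of another class than of its own. As an exception, a cluster of 946 cells with a score of 0.151 was counted as TECs because Pdpn, Vim and H2-Aa were each detected in at least 20% of its cells, with Epcam in under 25% and Pdgfra in under 20%. The same Epcam and Pdgfra limits were required for the name aaTEC2-like. UMI sums per library and lineage were tested with edgeR 4.0.16 (R 4.3.3; TMM, filterByExpr, quasi-likelihood F test, 2-sided, Benjamini-Hochberg over all genes tested, threshold 0.05), with libraries as replicates. The SE was the log2 change divided by the root of F. DESeq2 1.42.0 was an alternative, as were no filter, a replicate block, each library left out, thinning, subtraction of free RNA estimated from barcodes with at most 50 UMIs, shared barcodes counted once, no doublet removal and a limit of 500 genes. CPM used total UMIs of the summed cells, the precision of which follows the UMIs behind each value. Free RNA was at most 7.48% of a TEC sum. Subcluster tests needed 20 cells in each library and could be made in 4 subclusters.

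The 10 genes and the gene lists were chosen with earlier results of these data known. All 10 genes were examined in every lineage tested. From each list, counts are given with values for at most 6 called genes of smallest p, and the 3 genes most like each member were sought, of which the top is printed (that for Tslp is not reported here). The edgeR step was tested on simulated counts. Replicate numbers did not pair the libraries (given with the alternatives).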

Additional observations from a re-analysis of the deposited data

Results flagged for a closer look

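The effect of genotype differed between TECs, FBs and ECs by the interaction term in 4 genes. For Il7 the edgeR adjusted p was 0.000306, with a higher level in Z/Z TECs and lower values in Z/Z FBs and ECs that did not pass the test. For Il15 it was 0.00281, with a lower level in Z/Z TECs and smaller differences of the same sign in FBs and ECs that did not pass the test. For Il34 it was 7.29e-05, with a higher level in Z/Z TECs, a lower value in Z/Z FBs and a higher value in Z/Z ECs, the last 2 not past the test. For Il33 it was 0.0013, with a higher level in Z/Z TECs and genotypes that overlapped in FBs and ECs.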

How the results depend on the processing

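The cause of the changes below was not tested. In TECs 6 of the 10 genes were called in all but 6 alternatives: 5 with the replicate block, with thinning and without aaTEC2-like cells, and 2 to 6 with a library left out (2 without Z/Z 1). The number of all genes called in TECs (4241) was 2539 with the replicate block, 2825 with thinning and 864 to 4105 with a library left out. In FBs (420 genes, 2 of the 10) it was 1307 with no filter on low counts (4 of the 10), 211 with thinning (1 of the 10), 870 in named subclusters only, and 34 to 175 with a library left out (0 to 1 of the 10). In ECs (212 genes, 0 of the 10) it was 133 with DESeq2, 736 with no filter (1 of the 10), 366 with the replicate block, 66 with thinning, 85 with a limit of 500 genes per cell and 77 to 467 with a library left out; with no doublet removal 1 of the 10 was called, Il34 (adjusted p = 0.0154). In mural cells (7 genes, 0 of the 10) it was 16 with DESeq2, 161 with no filter (1 of the 10), 70 with the replicate block, 15 with thinning, 3 with a limit of 500 genes and 16 to 89 with a library left out (0 to 1 of the 10). Calls within subclusters numbered 2 to 4 with a library left out, against 2, and interaction calls 3 to 5, against 4. With 1 library left in a group, that library was assumed to vary like the other group.

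Log2 changes that turned sign belonged to genes that were not called. In TECs, Tslp turned to -0.027 with DESeq2, -0.10 with the block, -0.42 with free RNA subtracted, -0.15 with a limit of 500 genes, -0.13 with total-UMI scaling and -0.043 without aaTEC2-like cells, and ran from -0.69 to 0.51 with a library left out. Kitl turned to -0.011 with free RNA subtracted, -0.047 with total-UMI scaling and -0.14 without aaTEC2-like cells (-0.18 to 0.55 with a library left out), and Lifr to -0.12 with thinning and -0.051 with total-UMI scaling (-0.022 to 0.25 with a library left out). In FBs, Tnfsf13b turned to 0.11 and Kitl to 0.15 in named subclusters, and Tnfsf13b ran from -0.23 to 0.13 with a library left out. In ECs, Il33 turned to 2.32 with no doublet removal, and with a library left out Csf1 ran from -0.34 to 0.65, Il33 from -0.13 to 0.049, Lifr from -0.55 to 0.70 and Kitl from -0.015 to 0.40. In mural cells Il34 turned to 0.047 with thinning, and with a library left out Tslp ran from -1.07 to 0.23, Csf1 from -0.58 to 0.21 and Lifr from -0.51 to 0.081. Total-UMI scaling, the subsets of subclusters, the weighted levels and the libraries left out of the interaction and subcluster fits were chosen after seeing the data.

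Libraries with the same replicate number did not deviate together (correlations of -0.09 in TECs, -0.04 in FBs, -0.005 in ECs and -0.04 in mural cells, 2 pairs), so the numbers do not pair them. With the replicate block Flt3l in TECs lost its call (log2 change -1.31, adjusted p = 0.0616). The small number of cells in WT 2, and of its ECs and mural cells in particular, limits what can be detected.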
